A study of Homo sapiens with 6 samples.

Results

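Replication-dependent histone genes were examined in the polyadenylated RNA of cultured human macrophages. Members were the genes of both deposited tables whose symbol starts with H2AC, H2BC, H3C or H4C followed by a digit, or is H1-1 to H1-6. These were 51 of 17513 listed genes: 5 of linker histone H1, 14 of H2A, 14 of H2B, 9 of H3 and 9 of H4. RefSeq holds 70 protein-coding genes whose symbol fits, and the others were not analysed here. The 6 libraries form 2 groups of 3, named for the hairpin in the sample titles. By the series description the RNA is that of THP1 macrophages (THP1 is a monocytic leukemia line of human origin) after 48 h in conditioned medium. That medium came from KYSE150, an esophageal squamous carcinoma line, also human. The KYSE150 cells carried shSPP1#2, a hairpin against SPP1 (the secreted glycoprotein osteopontin), or shNC, the reference hairpin. The sample labels themselves name KYSE150 as the cells. The labels do not say whether replicates were separate cultures. A p-value therefore reflects the spread among these libraries and nothing more, and that spread may be technical.

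Replication-dependent histone genes supply the linker histone H1 and the core histones H2A, H2B, H3 and H4 that package new DNA in S phase. Their mRNAs are the exception among messenger RNAs: most end after a conserved stem-loop, bound by the protein SLBP, and carry no poly(A) tail. Some of these genes also use a polyadenylation signal past the stem-loop, and such tailed forms are known from differentiated cells, which no longer divide. A library made from tailed RNA therefore shows mainly the second kind.

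The cells were checked first. All 11 macrophage markers examined reached 1 FPKM (fragments per kilobase of gene length, scaled to library size) in each library, while 1 of 10 squamous epithelial markers did, S100A2. So did 2 of 6 fibroblast markers, 2 of the 3 T and NK cell markers that are among the listed genes, and 0 of 5 B cell markers. Further T and NK cell markers had been chosen but are not among the listed genes. The summed fibroblast markers lay at 25.8 to 28.15 FPKM in shNC and 25.26 to 28.02 FPKM in shSPP1#2 medium, and the T and NK markers at 14.21 to 17.19 and 12.11 to 14.52 FPKM. The 6 libraries summed to between 18113591 and 20626346 estimated counts. SPP1 measured 1890.4 to 2075 FPKM in these receiving cells, which does not check the knockdown in the KYSE150 cells. In bulk RNA, fewer cells making a transcript and less of it per cell cannot be told apart.

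The stem-loop is shown because it is the element that sets these mRNAs apart. A match to the histone stem-loop consensus, of 16 bases, lay after the stop codon in GENCODE v29 transcripts (GRCh38) of 26 of the 51 members. For 21 members the annotated models hold no more than 20 bases after the stop codon, so the element could not be looked for there. In the other 4, H2BC11, H1-4, H1-6 and H4C3, a model holds more than 20 such bases but no match was found. The 26 matches had 6 distinct sequences, given 5′ to 3′ as DNA with the 4-base loop in capitals.
H2AC18, H2AC19, H2AC6, H2BC21 and 10 others: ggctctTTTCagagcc
H2BC4, H2BC5, H2BC7 and H3C8: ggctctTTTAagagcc
H4C14, H4C15 and H4C9: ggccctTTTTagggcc
H4C2, H4C5 and H4C8: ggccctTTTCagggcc
H2AC11: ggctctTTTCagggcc
H3C6: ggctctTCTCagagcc
The stems of all 6 matched H4 genes differ from the most common sequence, and the abundant pair H4C14 and H4C15 share theirs with H4C9, which reached at most 0.57 FPKM.

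Annotated transcripts of 18 members ran over 200 bases past the stem-loop, by 212 to 1862 bases at the longest, and 14 of these hold AATAAA, the main polyadenylation hexamer, in that stretch. Their levels were mixed: the mean was 1 FPKM or more for 5 of the 18, with a median of 0.381 FPKM and a highest value of 11.6 FPKM. For 8 members the models that hold the stem-loop all stop within 200 bases of it, and 4 of these had a mean of 1 FPKM or more: H2AC18, H2AC19, H2BC5 and H2BC4. H2BC5 and H2BC4 each also have a spliced model that lacks the stem-loop, with 384 and 272 bases after the stop codon. H2AC18 and H2AC19 models end 35 bases after the stem-loop, with AATAAA in those bases. Of the 21 members with no annotated 3′ stretch, 2 had a mean of 1 FPKM or more, H2BC12 and H1-2.

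Reads of several members could come from more than 1 gene. H2AC18 (chromosome 1, 149842188 to 149842736, minus strand) and H2AC19 (chromosome 1, 149851061 to 149851624, plus strand) encode H2A. Every window of 50 bases, and every window of 100 bases, of the H2AC18 transcript recurs in H2AC19. H4C14 (chromosome 1, 149832659 to 149839767, plus strand) and H4C15 (chromosome 1, 149854045 to 149861210, minus strand) encode H4, and all windows of each longest transcript recur in the other. Of the other abundant members, H2BC12 shares 22.59% of its 50-base windows with other members and 0% of its 100-base windows. H1-2 shares none of either size. The RefSeq window from 250 bases before to 50 after the start (GRCh38.p14) is identical in H4C14 and H4C15, over 300 of 300 bases. It is printed to show that upstream sequence cannot separate the pair either, here as on the minus strand at chr1:149861110-149861409, with no motif in capitals because none of those searched is in it.
H4C15 and H4C14: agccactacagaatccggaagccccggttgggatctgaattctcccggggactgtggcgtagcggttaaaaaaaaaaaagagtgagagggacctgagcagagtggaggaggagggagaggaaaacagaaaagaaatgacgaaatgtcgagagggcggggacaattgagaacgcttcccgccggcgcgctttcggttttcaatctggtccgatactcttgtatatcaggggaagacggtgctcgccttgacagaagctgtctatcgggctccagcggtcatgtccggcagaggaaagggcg

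For contrast, the same window is given for the most abundant H2A and H2B genes. Capitals mark the octamer ATTTGCAT, known as the OCT1 site of histone promoters, the TATA box TATAAA and the CCAAT box CCAAT, each searched on both strands, with adjoining or overlapping matches merged.
H2AC18 (chr1:149842701-149843000, minus strand): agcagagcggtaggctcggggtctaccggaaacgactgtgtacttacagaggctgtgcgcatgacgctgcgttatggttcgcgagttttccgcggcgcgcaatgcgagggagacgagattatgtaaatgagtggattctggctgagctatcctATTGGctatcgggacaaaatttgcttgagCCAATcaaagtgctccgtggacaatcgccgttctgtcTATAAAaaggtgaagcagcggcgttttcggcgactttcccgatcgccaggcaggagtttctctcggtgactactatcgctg
H2BC12 (chr6:27146809-27147108, minus strand): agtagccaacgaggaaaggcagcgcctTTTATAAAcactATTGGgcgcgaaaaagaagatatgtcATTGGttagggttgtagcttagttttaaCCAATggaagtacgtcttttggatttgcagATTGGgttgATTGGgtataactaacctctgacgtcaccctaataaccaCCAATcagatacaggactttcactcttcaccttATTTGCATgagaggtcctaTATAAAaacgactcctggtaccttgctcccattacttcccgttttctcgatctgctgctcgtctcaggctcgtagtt
The octamer was found in 11 of 14 H2B, 10 of 14 H2A, 1 of 7 H3, 0 of 5 H1 and 0 of 8 H4 promoters, against 1.8% of the 27305 promoters of all genes. The H3 match is in the window of H3C4 (chr6:26199244-26199543), which is also the window listed for H2AC7. The GENCODE model of H3C4 lies elsewhere, at 26196840 to 26197250. Some H2A and H2B windows overlap on opposite strands, such as those of H2AC6 and H2BC4, so that the same site can count under both types. TATAAA was in 64.58% of the 48 member promoters present (11.95% of all) and CCAAT in 85.42% (35.7% of all), with 1 of 8 H4 promoters holding CCAAT. The octamer was in 5 of 11 promoters of members with a mean of 1 FPKM or more and in 17 of 37 of the rest. TATAAA was in 8 of 11 and 23 of 37, and CCAAT in 9 of 11 and 32 of 37.

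Members were detected less often than listed genes in general. Each library held 32 to 35 of the 51 members above 0 counts, and 16069 to 16242 of the 17513 listed genes. Above 0 in every library were 21 members (41.18%), against 85.27% of all listed genes. Fewer than 12 estimated counts over the 6 libraries together were found for 27 of the 51 members and for 2223 of the 17513 listed genes. A level of 1 FPKM in every library was reached by 9 members (17.65%), where 61.0% of all listed genes did so. These 9 were H1-2, H2AC18, H2AC6, H2BC12, H2BC21, H2BC5, H2BC4, H4C14 and H4C15. The 10 most abundant members held 95.93% of the summed member level. Genes of the chromosome 1 cluster (10 members) held 61.18% of it and the 41 genes of the chromosome 6 cluster 38.82%. Of 10 members listed as known to be polyadenylated in differentiated cells, 7 reached 1 FPKM in every library and the 10 held 87.25% of the summed level. Of the 41 other members 2 did, the H4 pair. That list came from general knowledge of the field.

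**Figure D1:**
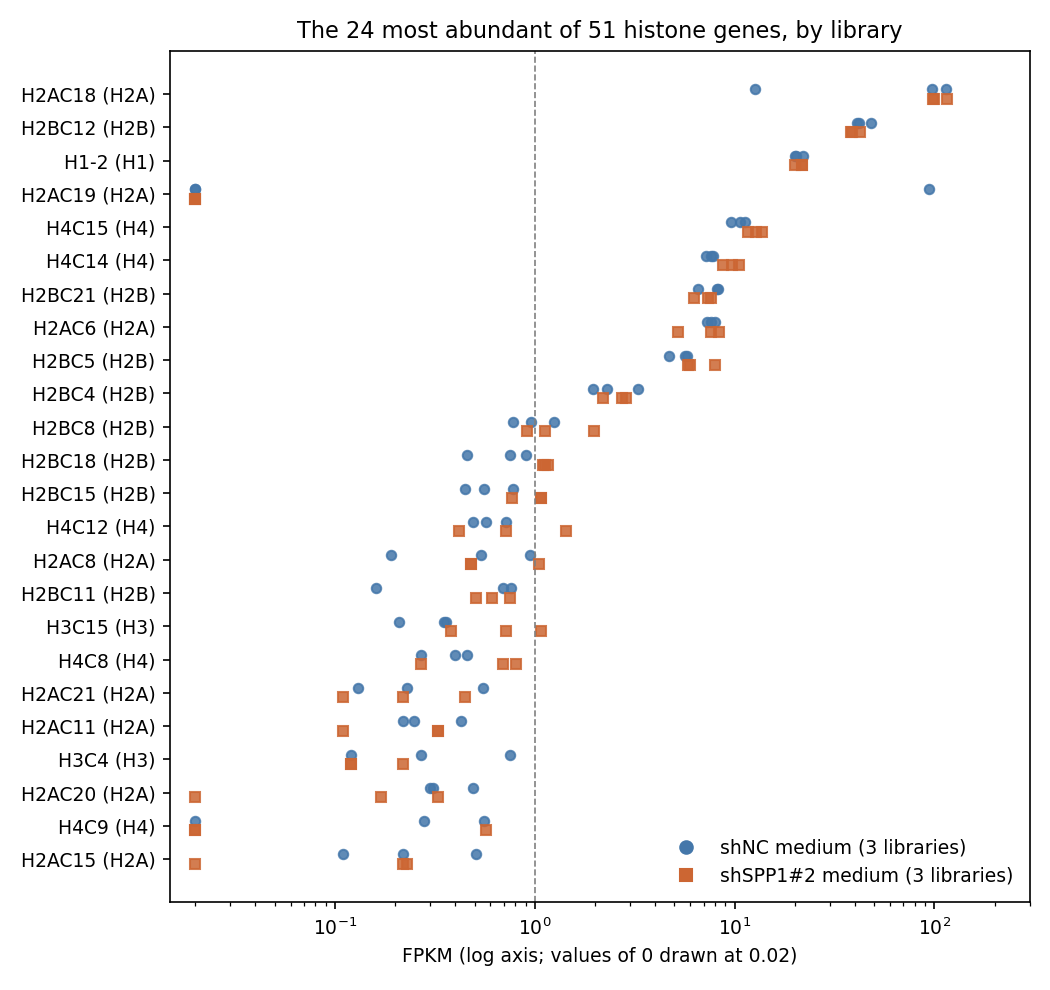
FPKM (log axis) of the 24 most abundant histone genes, one symbol per library, circles for shNC medium and squares for shSPP1#2 medium; the dashed line is 1 FPKM. H2AC18 has a single low circle at 12.65 FPKM where H2AC19 has its single high one at 93.5 FPKM, and most genes past the first 10 lie under 1 FPKM.

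H2A genes formed the largest share, 51.93% of the summed member level. In shNC medium H2AC18 measured 12.65 FPKM in replicate 1, 115 FPKM in replicate 2 and 97.8 FPKM in replicate 3. In shSPP1#2 medium it measured 99.0, 115 and 98.8 FPKM. H2AC19 was at 93.5 FPKM in shNC replicate 1 and listed at 0 in the 5 other libraries. The low library of the first gene is thus the high library of the second. In estimated counts H2AC19 took 88.1% of the pair's reads in shNC replicate 1 and at most 0.002% elsewhere. Summed, the pair measured 106, 115 and 97.8 FPKM in shNC medium and 99.0, 115 and 98.8 FPKM in shSPP1#2 medium. No library stands apart once the pair is summed, and the group means were 106 ± 8.51 and 104 ± 9.32 FPKM (SD, n = 3 each). H2AC6, a chromosome 6 H2A gene (26124145 to 26139116), measured 7.28, 7.59 and 7.97 FPKM in shNC and 7.65, 5.19 and 8.37 FPKM in shSPP1#2 medium. The groups overlap, with shSPP1#2 replicate 2 lowest. H2AC8 lay between 0.19 and 1.05 FPKM, and the 10 other H2A genes stayed under 1 FPKM in every library.

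**Figure D2:**
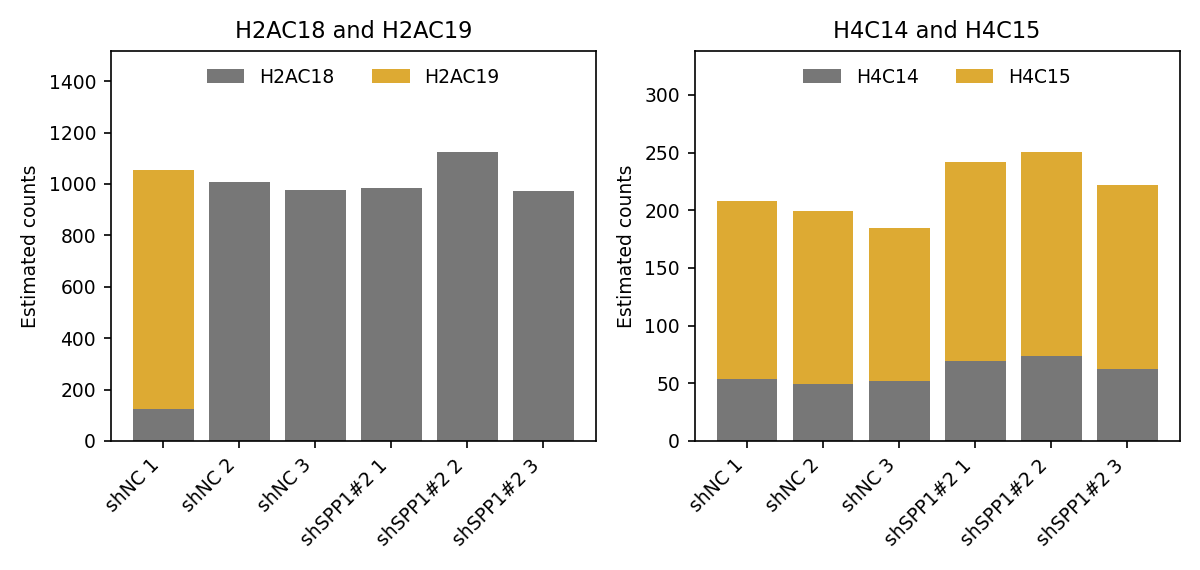
Estimated counts of H2AC18 with H2AC19 (left) and H4C14 with H4C15 (right), stacked, in each of the 6 libraries. In shNC replicate 1 most counts of the H2A pair are listed under H2AC19 (928.64 of 1054), whereas the height of the stack is like that of the other libraries; the H4 pair is divided alike in all 6.

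H2B genes held 27.91% of the summed level and were the type with the most genes at 1 FPKM in every library (4 of 14). H2BC12 (chromosome 6, 27146418 to 27146798) measured 42.18, 48.3 and 41.21 FPKM in shNC and 42.4, 38.22 and 38.6 FPKM in shSPP1#2 medium. The FPKM values overlap between groups. H2BC21 (chromosome 1, 149884459 to 149886652) measured 8.15, 8.29 and 6.6 FPKM in shNC and 6.29, 7.66 and 7.36 FPKM in shSPP1#2 medium. Here too the groups overlap. H2BC5 measured 5.64, 4.72 and 5.78 FPKM against 6, 7.94 and 5.86 FPKM, so that all 3 shSPP1#2 libraries lay above all 3 shNC libraries by a narrow margin. H2BC4 measured 3.29, 1.95 and 2.31 FPKM against 2.19, 2.72 and 2.87 FPKM, which overlap. H2BC8 and H2BC18 were near 1 FPKM. H2BC11, an H2B gene on the polyadenylated list, reached at most 0.76 FPKM.

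H4 genes held 9.97%, and a single near-identical pair reached 1 FPKM in every library. The FPKM values imply unlike lengths for these genes, at 347 bases for H4C14 and 642 to 739 for H4C15. Their shared windows were found in GENCODE v29 models, and the annotation release behind the deposited values is not stated. H4C15 measured 10.64, 11.25 and 9.63 FPKM in shNC and 12.8, 13.66 and 11.74 FPKM in shSPP1#2 medium, and H4C14 7.6, 7.8 and 7.2 against 9.75, 10.48 and 8.77 FPKM. In FPKM both genes were higher in every shSPP1#2 library than in any shNC library. For H4C15 the implied gene length also differed between the groups, at 672 to 739 bases in shNC and 642 to 669 in shSPP1#2 medium. A shorter length gives a higher FPKM for the same count. In library-scaled counts the H4C15 groups overlap, at 7.48, 8.44 and 6.45 CPM in shNC and 8.386, 8.86 and 7.753 CPM in shSPP1#2 medium. Of the 7 other H4 genes, H4C12 lay between 0.42 and 1.44 FPKM and H4C8, which is on the polyadenylated list, between 0.27 and 0.81 FPKM.

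H1 was carried by a single gene. H1-2, a somatic linker histone (chromosome 6, 26055787 to 26056428), measured 22.06, 20.09 and 20.19 FPKM in shNC and 21.66, 21.77 and 20.14 FPKM in shSPP1#2 medium, and the groups overlap. The other somatic linker histones H1-3, H1-4 and H1-5, and the testis-type H1-6, reached at most 0.29 FPKM.

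H3 genes were low in this polyadenylated RNA, with 0.53% of the summed level and 0 of 9 members at 1 FPKM in every library. Their summed level was 1.26, 1.32 and 0.7 FPKM in shNC and 1.57, 0.96 and 1.24 FPKM in shSPP1#2 medium. The highest single gene was H3C15, at 0.35, 0.36 and 0.21 FPKM against 1.07, 0.38 and 0.72 FPKM. Those values rest on 2.08 to 10.37 estimated counts per library. H3C4, the next, lay between 0.12 and 0.75 FPKM.

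Replication-independent variant genes, whose mRNAs are polyadenylated throughout the cell cycle, made the contrast by type. H3-3A, which encodes variant H3.3, measured 441.96 to 478.84 FPKM and H3-3B, which encodes the same protein, 103.43 to 108.43 FPKM. Each exceeds the summed H3 members in every library. The H2A variant genes H2AZ1 and MACROH2A1 lay at 264.97 to 282.46 and 134.22 to 142.46 FPKM. H1-10, a linker histone variant gene, measured 76.9 to 90.98 FPKM. H2AZ1, MACROH2A1 and H1-10 were named after their values were seen. H2AW, an H2A gene outside the symbol rule and on the polyadenylated list, measured 4.6 to 7.45 FPKM.

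By type, the summed FPKM differed little between the media except for H4. Group means in shNC and shSPP1#2 medium were 21.1 ± 1.10 and 21.5 ± 1.16 FPKM for H1, 116 ± 8.63 and 113 ± 6.93 FPKM for H2A, 62.7 ± 4.62 and 60.4 ± 1.67 FPKM for H2B, and 1.09 ± 0.342 and 1.26 ± 0.305 FPKM for H3 (SD, n = 3 each). The libraries of these 4 types overlap between the groups. H4 summed to 19.51, 20 and 18.63 FPKM in shNC and 25.07, 26.52 and 22.19 FPKM in shSPP1#2 medium, with means of 19.4 ± 0.694 and 24.6 ± 2.2 FPKM (SD, n = 3 each). The H4 groups do not overlap. The log2 ratio of the H4 means was 0.34 in FPKM and 0.24 when library-scaled counts (TMM-scaled CPM) were summed instead. No p is given for these sums, because the genes were grouped with earlier results of these data known.

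**Figure D3:**
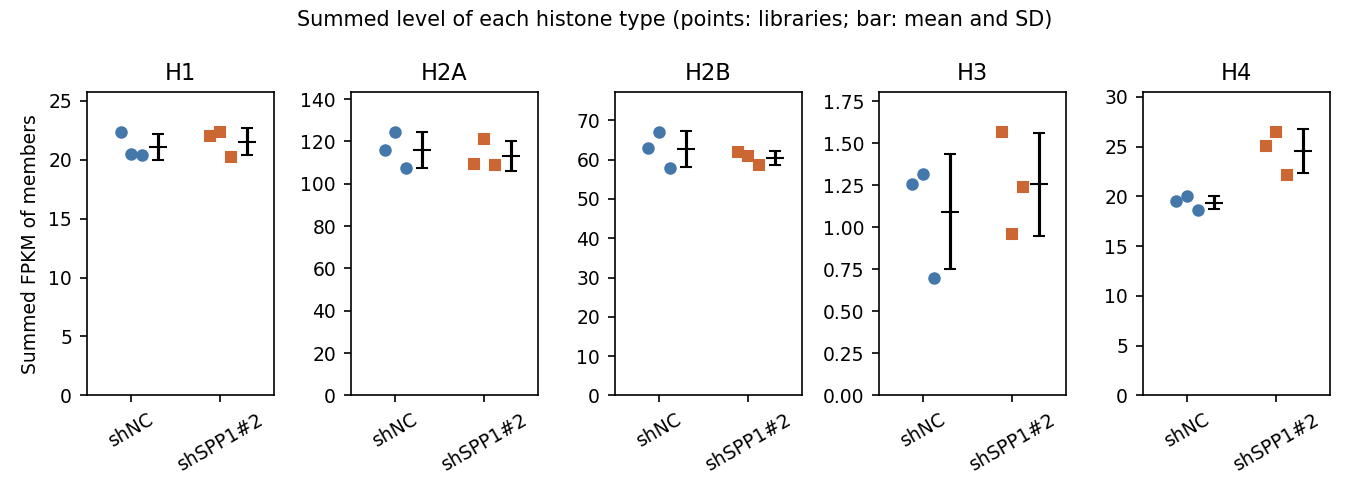
Summed FPKM of the member genes of each histone type, one symbol per library, with the mean and SD of each group beside it; each panel has its own axis from 0. For H4 the 3 shSPP1#2 libraries (22.19 to 26.52) lie above the 3 shNC libraries (18.63 to 20), and the other types overlap.

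The question of the comparison is whether medium of tumor cells carrying the hairpin against SPP1 changes macrophage RNA. The 11 members with enough counts were tested in a fit over all genes (edgeR quasi-likelihood test, Benjamini-Hochberg adjustment over 13555 genes). No member was called at an adjusted p below 0.05, and 0% of all tested genes were. Limma-voom also called 0 members. DESeq2 assigned an adjusted p to 4264 genes (0.305% of them called) and to 0 of the 51 members, so it gives no call on them either way. At an unadjusted p below 0.05 edgeR gave 1 of the 11 members, H4C14, where 6.85% of all tested genes passed (3.45% higher in shSPP1#2 medium). The log2 fold changes, shSPP1#2 minus shNC, were positive for 8 and negative for 3, with a median of 0.16 against -0.0003 over all tested genes. With the 2 near-identical pairs each summed into 1 feature, which was decided on with the data in view, the median over 10 features was 0.093. Library-scaled counts did not overlap between the groups for 4 of the 11 members, where 11.1% of all tested genes did not: H4C14, H2BC5 and H2BC18 were higher in shSPP1#2 medium (5.63% of all tested genes were apart in that direction) and H2BC12 lower (5.5%). Over so few genes that share reads, these counts describe the members and are no test of them.

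H4C14 had a log2 fold change of 0.35 with a standard error of 0.16 (95% interval 0.0051 to 0.70, edgeR adjusted p = 0.724). H4C15 had one of 0.16 (-0.073 to 0.40, edgeR adjusted p = 0.85). Summed, the pair had 207.68, 199.61 and 184.98 estimated counts in shNC and 242.19, 250.55 and 221.99 in shSPP1#2 medium. After scaling to library size the CPM values were 10.1, 11.18 and 8.97 against 11.78, 12.51 and 10.76, so that shSPP1#2 replicate 3 fell below shNC replicate 2. The log2 fold change of the sum was 0.22 with a standard error of 0.10 (95% interval 0.0067 to 0.43, edgeR adjusted p = 0.713). Among fits lacking a library the lowest value was 0.14, in the absence of shNC replicate 3, and the highest 0.29, when shNC replicate 2 was dropped. The adjusted p over all alternatives tried for the pair ran from 0.366 to 1.0. The interval of the sum thus lay above 0 in this fit, but the sum did not pass the correction for all genes. Its unadjusted edgeR p was 0.0438, where 6.85% of all tested genes had one below 0.05. Among fits lacking a library the unadjusted edgeR p of the sum ran from 0.0156 to 0.216, and DESeq2 gave an unadjusted p of 0.122. With a replicate block edgeR gave the sum an unadjusted p of 0.0254 (adjusted p = 0.366). Limma-voom gave it an unadjusted p of 0.0438 (adjusted p = 0.721).

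H2AC18 alone had a log2 fold change of 0.48 (95% interval -0.26 to 1.22, edgeR adjusted p = 0.867). Without shNC replicate 1, the library whose reads are listed under H2AC19, it was -0.035, and without shNC replicate 2 it was 0.92. Limma-voom gave 1.03 (adjusted p = 0.711), and limma on log2 FPKM 0.96 with a pseudocount of 1 and 0.99 with one of 0.1. The summed pair had a log2 fold change of -0.030 with a standard error of 0.070 (95% interval -0.18 to 0.12, edgeR adjusted p = 0.965). H2AC19 did not pass the filter on low counts, which asks for counts in several libraries. Without that filter edgeR gave it an adjusted p of 0.0216, lower in shSPP1#2 medium, as the only member among 18 called genes (0.103% of 17482). That call rests on shNC replicate 1 alone, with 928.64 estimated counts there, 0.02 in shNC replicate 2 and 0 in the 4 others. DESeq2 returned no p for H2AC19.

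The H2B genes varied in sign. H2BC12 had a log2 fold change of -0.10 with a standard error of 0.063 (95% interval -0.24 to 0.030, edgeR adjusted p = 0.816). Its scaled counts were 30.79, 33.59 and 30.70 CPM against 30.15, 29.18 and 29.12 CPM, a gap narrower than the spread within shNC medium. H2BC21 measured -0.12 (-0.33 to 0.092), H2BC5 0.16 (-0.13 to 0.46) and H2BC4 0.19 (-0.18 to 0.55). H2BC18 measured 0.63 (-0.19 to 1.44) from 9.17, 6.96 and 7.38 estimated counts in shNC and 13.82, 11.47 and 11.96 in shSPP1#2 medium. H2BC18 and H2BC21 share 8.14% of the 50-base windows of the H2BC18 transcript. Of the remaining tested members, H1-2 measured 0.023 (-0.15 to 0.20), H2AC6 -0.12 (-0.48 to 0.25) and H2BC8 0.41 (-0.48 to 1.30). For H1-2, H2BC12 and the H2A pair the intervals lay within 0.25 of 0 on the log2 scale, so larger differences are outside them.

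**Figure D4:**
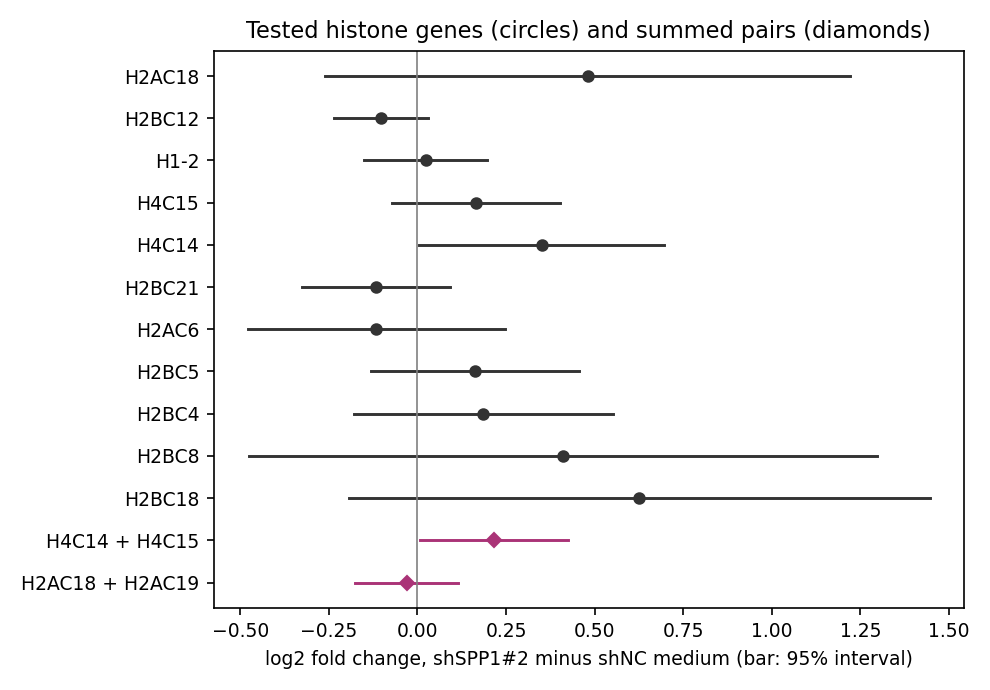
Log2 fold change (shSPP1#2 minus shNC medium) with its 95% interval for the 11 tested histone genes, circles, and for the 2 summed pairs, diamonds. H2AC18 has a wide interval (-0.26 to 1.22) that narrows to -0.18 to 0.12 for the pair, and only the intervals of H4C14 and of the H4 pair lie above 0.

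The 40 members that were not tested were H2AC19 and 39 genes with 0.93 to 46.83 estimated counts over the 6 libraries and at most 11.07 in any library. These 39 together gave 73.09, 65.79 and 51.63 estimated counts in shNC and 86.9, 71.06 and 61.86 in shSPP1#2 medium, and the groups overlap. They hold most chromosome 6 genes, all H3 genes, and every H4 gene but the pair. Without the low-count filter edgeR called 0 of the 39, with 0 at an unadjusted p below 0.05.

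Genes that make, process and remove histone mRNA gave no call. Their counts at an unadjusted p below 0.05, given here for each list, stand beside 6.85% over all tested genes. Of 33 tested genes of histone transcription and 3′ processing, 19 were higher and 14 lower in shSPP1#2 medium, with a median of 0.0066 and 0 called by edgeR (2 at an unadjusted p below 0.05). SLBP, the stem-loop binding protein, measured 51.22, 44.49 and 49.24 FPKM in shNC and 51.81, 52.39 and 52.16 FPKM in shSPP1#2 medium. Its 3 shSPP1#2 libraries lay above the others, with a log2 fold change of 0.10 and a standard error of 0.050 (edgeR adjusted p = 0.742). NPAT, the activator of histone transcription at S phase entry, measured 0.083 with a standard error of 0.064. SNRPE and SNRPF, ring proteins of small nuclear ribonucleoproteins shared with splicing, measured -0.22 each (edgeR adjusted p = 0.618 and 0.676), SRRT, a cap-complex partner, -0.10, and SNRPG, the most abundant of the list, -0.090. Of 20 tested genes of histone mRNA decay 9 were higher and 11 lower, with 0 called by edgeR (1 at an unadjusted p below 0.05). XRN1, a 5′ exonuclease, measured 0.13 (edgeR adjusted p = 0.633), the kinases SMG1 and PRKDC 0.12 and 0.096, and LSM7, the most abundant, -0.035.

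Histone chaperones and S phase genes gave no call either. Over all 13555 tested genes 6759 were higher and 6796 lower. Of 24 chaperone genes 10 were higher and 14 lower (median -0.020, 0 called by edgeR, 1 at an unadjusted p below 0.05). NASP, a chaperone of H3 and H4, measured 18.71, 18.92 and 18.32 FPKM in shNC and 16.08, 16.72 and 18.27 FPKM in shSPP1#2 medium. Its groups do not overlap, and its log2 fold change was -0.14 with a standard error of 0.050 (edgeR adjusted p = 0.601). ASF1A, another H3 and H4 chaperone, measured -0.076, MMS22L -0.26, SPTY2D1 0.083 and the most abundant, NAP1L1, 0.0025. Of 36 DNA replication and S phase genes 10 were higher and 26 lower, with a median of -0.054 (0 called by edgeR, 1 at an unadjusted p below 0.05). The helicase subunit MCM4 measured -0.14 (edgeR adjusted p = 0.691), the replisome gene GINS3 -0.22, the ribonucleotide reductase subunit RRM2 -0.19 and RPA2, the most abundant, 0.0047. MCM10, at 0.12 to 0.45 FPKM, measured -0.59 (95% interval -1.25 to 0.074), and -0.27 without shSPP1#2 replicate 1. The list median level of S phase genes lay between 3.405 and 4.165 FPKM, and 31 of 36 reached 1 FPKM in every library. Of 11 tested variant genes 4 were higher and 7 lower (median -0.012, 0 called by edgeR, 0 at an unadjusted p below 0.05). H3-3A measured -0.057, H3-3B -0.043, the centromeric CENPA 0.39 and MACROH2A2 0.34, the last pair at under 1 FPKM in every library.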

How the data were processed

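Polyadenylated RNA of 6 libraries (3 shNC, 3 shSPP1#2) was sequenced on a DNBSEQ platform, per the labels' protocols. The authors deposited estimated counts per gene, not scaled, and FPKM values per gene. Per the submitters' processing notes the tools included HISAT2 2.0.4, Bowtie2 2.2.5 and RSEM, and the build was GRCh38.p13; the notes assign them no roles. The notes do not state an annotation release or strand use. RSEM divides reads that fit several genes, which bears on near-identical histone genes. The FPKM table also held 20 stray text lines, which were removed.

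The members and gene lists were chosen with earlier results of these data known. Estimated counts were rounded, filtered with filterByExpr, then TMM-scaled; the test was the quasi-likelihood F-test of edgeR 4.0.16 (under R 4.3.3) over 13555 genes, with no block and a threshold of 0.05 on the Benjamini-Hochberg adjusted p. Standard errors and 95% intervals come from that fit. The calls of the fitting script were tried on simulated data with known fold changes, with the outcome not given here. The changed genes there were not of low count, and no reads were shared between genes. That trial therefore does not cover low-count or near-identical members. Levels between genes were compared in FPKM. Named genes were the 4 most abundant members per histone type, the 5 members of smallest p, the 4 genes of smallest p and the most abundant gene per list, SLBP, NPAT and SPP1. Sequences came from GENCODE v29 transcripts (51 of 51 members matched by Entrez number) and RefSeq promoters (48 of 51). The labels state no pairing, so the replicate numbers were not used as pairs in the reported fit. Same-numbered libraries had correlations of 0.048 to 0.096 over genes in their deviations from the group means. Across groups, 6 of 6 libraries correlated best with their own number. These 6 readings come from the same few correlations and are not independent, so they do not settle whether the libraries were paired. Alternatives were other scalings and filters, a replicate block, each library left out, DESeq2 1.42.0, limma-voom and limma on log2 FPKM (limma 3.58.1).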

Additional observations from a re-analysis of the deposited data

How the results depend on the processing

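Of the alternatives run, those that changed a count were as follows. Over all genes edgeR called 0 genes in the reported fit, 18 without a low-count filter (1 of them a member, H2AC19) and 1 to 10 with single libraries left out; DESeq2 called 13, and limma-voom and limma on log2(FPKM + 0.1) 1 each. With a replicate block edgeR called 59 genes and 0 members. The labels do not say whether equal replicate numbers mark pairs. Across groups 6 of 6 libraries correlated best with their own number, but these readings are not independent and do not settle it. The count of called members was 0 in each left-out fit. The median over tested members was 0.28 by limma on log2(FPKM + 0.1) and 0.093 with the near-identical pairs summed. It was 0.12 to 0.24 with single libraries left out. The cause was not tested. Leaving out the most abundant member changed the log2 ratio of summed FPKM from 0.032 to 0.28 for H1, from -0.035 to -2.20 for H2A (where H2AC19, read in 1 library, then dominates), from -0.052 to 0.14 for H2B and from 0.20 to -0.56 for H3. With single libraries left out these ratios ran from 0.0025 to 0.076 for H1, -0.087 to 0.021 for H2A, -0.11 to 0.0002 for H2B, -0.038 to 0.36 for H3 and 0.29 to 0.41 for H4, and by summed CPM H4 gave 0.24 and H3 turned to -0.15. The sign of small fold changes turned in left-out fits for H1-2 (-0.0055 to 0.068), H2AC18 (-0.035 to 0.92), H2AC6 (-0.24 to 0.057), NAP1L1 (-0.025 to 0.048), RPA2 (-0.016 to 0.019) and SPP1 (-0.034 to 0.038). Upper-quartile scaling turned NAP1L1 to -0.0002 and SPP1 to -0.0005. At 0.5 or 5 FPKM in place of 1, 10 or 7 members were counted as detected in every library in place of 9. The 39 members with the fewest counts were tested only without the low-count filter. DESeq2 gave no count of called members, since none had an adjusted p.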

Other observations

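The length that the authors' FPKM values imply for each gene (estimated count divided by FPKM and by the library's total count in the table) was constant across libraries for some members and not for others. It was 2174 to 2176 bases for H2BC21, 682 for H1-2, 470 for H2AC6, 484 for H2AC18 and 347 for H4C14. The GENCODE v29 transcripts of H2AC6 are 1462 to 1668 bases long, and that of H2BC21 is 2194. Those of H4C14 are 583 to 1547 bases long, those of H4C15 610 to 1694, and that of H2BC12 is 381. For 4 members the implied length moved between libraries, from 1146 to 1676 bases for H2BC4, 555 to 767 for H2BC5, 642 to 739 for H4C15 and 687 to 764 for H2BC12. For H4C15 it was 705, 739 and 672 bases in shNC and 655, 642 and 669 in shSPP1#2 medium, which do not overlap. The log2 fold change of H4C15 was 0.165 in estimated counts (edgeR) and 0.2751 by limma on log2(FPKM + 0.1). Why the implied length differs was not tested.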
